A study of Mus musculus with 4 samples.

Results

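The mouse metallothionein genes Mt1, Mt2 and Mt3 were examined in RNA of multicilia purified from cultured mouse ependymal cells (mEPCs). The genes were taken by symbol and were chosen by their high levels in these same libraries, so their levels are given as a description with no test. They are 3 of 10213 gene symbols, counted after symbols turned into dates were restored, and hold 6 of the 12515 transcript rows of the deposited table. All 6 rows reached the minimum for the comparison of the groups, a mean of 1 FPKM over the libraries. FPKM is the number of sequenced fragments divided by transcript length and by the mapped fragments of the library.

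The study asked which mRNAs of the multicilia depend on Fmrp, the RNA-binding protein encoded by Fmr1. The 4 libraries were 2 from mEPCs transfected with the control siRNA Ctrl-i and 2 from mEPCs transfected with Fmr-i1, an siRNA against Fmr1, with 1 library of each group in Exp.1 and 1 in Exp.2. All cultures were grown from the telencephalon of newborn C57BL/6 pups of either sex and were starved of serum to start differentiation. They received siRNA repeatedly, beginning on the eve of serum removal, and were harvested at day 10. The dose of 40 pmol is stated in the paper for cells in glass-bottom dishes. Cells for cilia purification were grown in flasks, for which the paper gives no separate dose. The multicilia were sheared off together with the apical cortex that bears them and purified in an iodixanol gradient, and the libraries were made from poly(A) RNA with a kit that keeps the strand. Each library therefore samples a purified fraction of a mixed primary culture and not whole cells. The sources used here do not say whether the experiments used different litters, so p-values measure only the spread between these libraries.

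Fmr1 had 1 row, at 0.42 FPKM in Ctrl-i of Exp.1, 8.13 FPKM in Ctrl-i of Exp.2 and listed at 0 in both Fmr-i1 libraries. Each Fmr-i1 library held 162 rows at 0 and each Ctrl-i library held 0, so a value of 0 in Fmr-i1 was not particular to Fmr1. The table holds FPKM without counts, so the read depth is unknown and no counting error can be given. The summed FPKM was between 538484 and 589883 in the 4 libraries. Symbols that start with mt- are RNAs of the mitochondrial genome, here mt-Rnr1, mt-Rnr2 and mt-Nd3, and these 3 rows took 28.1% and 38.4% of the summed FPKM in Ctrl-i, against 28.8% and 23.5% in Fmr-i1, with Exp.1 first. All 10 ependymal markers examined were measured, among them Foxj1, the transcription factor of the motile cilium program, with a mean of 264.66 FPKM.

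Metallothioneins are small cytosolic proteins that bind zinc and copper through clusters of cysteine residues, and they buffer free metal and scavenge oxidants. Transcription of Mt1 and Mt2 is induced by zinc and cadmium through the transcription factor Mtf1, which binds metal response elements (MREs), and is also raised by glucocorticoids and oxidative stress. Mt1 and Mt2 are made in most tissues and in brain mainly by astrocytes and ependymal cells. Mt3, first isolated from brain as a growth inhibitory factor, is found mainly in the nervous system and responds weakly to metals.

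The genes lie in 1 cluster on the + strand of chromosome 8 in GRCm38. Mt3 spans 94152607 to 94154146, Mt2 spans 94172664 to 94173568 and Mt1 spans 94179082 to 94180327. The whole stretch from the start of Mt3 to the end of Mt1 is 27721 bases, with 18517 bases between Mt3 and Mt2 and 5513 bases between Mt2 and Mt1. Mt4, at 94137197 to 94139031, is the remaining metallothionein of the cluster in the annotation and had no row in the table. Each main transcript has 3 exons, and the transcripts are short, with 549 bases for Mt1, 511 for Mt2 and 536 for Mt3, against a median of 2657 bases over all annotated rows.

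The coding sequences are shown because the shared spacing of cysteines is what defines the family and because similar transcripts could exchange reads. They were read from GENCODE M21 (GRCm38, + strand), run from the start codon to the last codon before the stop, and have the cysteine codons TGC and TGT in capitals.
Mt1: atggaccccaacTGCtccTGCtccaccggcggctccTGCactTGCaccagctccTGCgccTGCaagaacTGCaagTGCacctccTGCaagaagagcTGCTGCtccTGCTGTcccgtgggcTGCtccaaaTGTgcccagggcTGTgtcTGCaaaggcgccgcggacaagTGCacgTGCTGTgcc
Mt2: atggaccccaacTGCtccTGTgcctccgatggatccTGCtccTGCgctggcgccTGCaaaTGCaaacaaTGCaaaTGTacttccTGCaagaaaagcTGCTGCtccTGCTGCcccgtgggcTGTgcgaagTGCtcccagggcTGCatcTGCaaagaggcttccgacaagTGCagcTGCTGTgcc
Mt3: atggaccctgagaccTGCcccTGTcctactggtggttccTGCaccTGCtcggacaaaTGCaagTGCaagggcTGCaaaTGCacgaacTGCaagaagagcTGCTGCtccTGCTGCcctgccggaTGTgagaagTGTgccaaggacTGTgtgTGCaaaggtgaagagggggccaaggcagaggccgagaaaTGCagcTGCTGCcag
Mt1 and Mt2 encode 61 residues and Mt3 encodes 68. Each holds 20 cysteines, 16 coded by TGC and 4 by TGT, which is 32.8% of the residues of Mt1 and Mt2 and 29.4% of those of Mt3. None holds an aromatic residue. In pairwise alignments all 20 cysteines fell opposite each other in every pair, and the identity of aligned residues was 75.4% for Mt1 and Mt2, 72.1% for Mt1 and Mt3 and 63.9% for Mt2 and Mt3.

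At the RNA level the members were distinct. No stretch of 31 bases of the main Mt1 or Mt3 transcript (519 and 506 windows) was found in a transcript of another gene, on either strand. In Mt2, 270 of 481 such windows (56.1%) were also found in Gm45774 or Pip5k1a. Gm45774 is an antisense gene on the - strand, at 94170748 to 94173412, that overlaps Mt2. Neither has a row in the table, and the sources used here do not say whether the counting used the strand, so the Mt2 value may hold reads of Gm45774.

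The bases before the annotated start of Mt1 and Mt2 are shown because these neighbouring genes are the pair known for a shared response to metal. The sequences are the 250 bases upstream of the RefSeq start on the + strand of GRCm38.p6, with MRE core matches in capitals.
Mt1, chr8:94178839-94179088: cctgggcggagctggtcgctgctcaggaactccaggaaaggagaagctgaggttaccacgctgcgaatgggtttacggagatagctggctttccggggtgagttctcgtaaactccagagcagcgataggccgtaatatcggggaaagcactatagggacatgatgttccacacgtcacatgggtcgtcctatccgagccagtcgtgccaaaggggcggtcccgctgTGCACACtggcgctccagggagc
Mt2, chr8:94172368-94172617: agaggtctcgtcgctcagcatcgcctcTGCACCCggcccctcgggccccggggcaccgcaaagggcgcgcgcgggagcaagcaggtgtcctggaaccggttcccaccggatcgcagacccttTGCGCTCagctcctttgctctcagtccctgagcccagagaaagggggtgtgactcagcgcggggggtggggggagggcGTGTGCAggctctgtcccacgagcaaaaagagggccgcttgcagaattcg
The search took the cores TGCACNC and TGCGCNC on both strands over the 250 bases upstream and the first 50 bases of the gene, and no matches overlapped. Mt1 had 3 matches, of which 1 was upstream, and Mt2 had 4, of which 3 were upstream. Mt3 had 1, after its start. Of 32851 promoters of the same length, 25.7% held at least 1 match, 1.97% held at least 3 and 0.517% held at least 4. The antioxidant response core TGACNNNGC was found once, in Mt2 as TGACTCAGC, and is held by 12.4% of promoters. These are matches of letters and not sites of binding. The windows were placed on the RefSeq starts, 94179089 for Mt1 and 94172618 for Mt2, which are not the GENCODE starts given above. Other annotated Mt1 transcripts, Mt1-203 and Mt1-202, start further downstream, at 94179211 and 94179241, past the bases searched. The counts hold for these windows only, and the bases between the Mt1 window and those starts were not searched.

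Mt1 and Mt2 were among the 6 highest rows of every library. The row of the main Mt1 transcript had 12035 FPKM in Ctrl-i of Exp.1, 9865 in Ctrl-i of Exp.2, 8540 in Fmr-i1 of Exp.1 and 8231 in Fmr-i1 of Exp.2. It ranked 5, 5, 6 and 6 in the same order of libraries, and 3, 3, 4 and 4 without the mt- symbols. Both Fmr-i1 libraries were below both Ctrl-i libraries, as in 11.2% of all rows tested.

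Mt2 had 13388 and 8418 FPKM in Ctrl-i and 9636 and 9743 FPKM in Fmr-i1, with Exp.1 first. It ranked 4 and 6 in Ctrl-i, against 5 and 4 in Fmr-i1, and 2, 4, 3 and 2 without the mt- symbols. The 2 Ctrl-i libraries enclosed the 2 Fmr-i1 libraries, and the Ctrl-i value of Exp.1 was 1.59 times that of Exp.2.

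Mt3 had 4207 and 3713 FPKM in Ctrl-i and 2710 and 2998 FPKM in Fmr-i1. It ranked 9, 10, 12 and 11, and 7, 7, 10 and 9 without the mt- symbols. Both Fmr-i1 libraries were again below both Ctrl-i libraries.

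**Figure D1:**
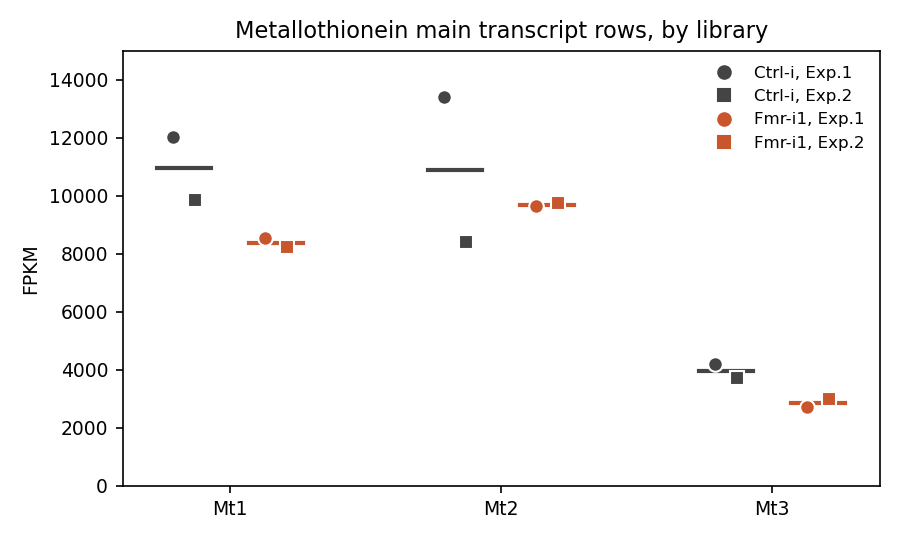
FPKM of the main transcript rows of Mt1, Mt2 and Mt3 (vertical axis, linear) in each of the 4 libraries. Circles are Exp.1, squares are Exp.2 and horizontal lines are group means (n = 2). For Mt1 and Mt3 both Fmr-i1 points lie below both Ctrl-i points, and for Mt2 the Ctrl-i points at 13388 and 8418 FPKM enclose the Fmr-i1 points.

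As a share of the summed FPKM, Mt1 took 2.06% and 1.67% in Ctrl-i, against 1.51% and 1.53% in Fmr-i1. Mt2 took 2.29% and 1.43% in Ctrl-i, against 1.71% and 1.81% in Fmr-i1. Mt3 took 0.720% and 0.629% in Ctrl-i, against 0.480% and 0.557% in Fmr-i1. In every library Mt1 and Mt2 each held between 2.27 and 3.56 times the share of Mt3.

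All 6 rows together took 5.08% and 3.73% of the summed FPKM in Ctrl-i, against 3.71% and 3.90% in Fmr-i1, and these groups overlapped. Without the mt- symbols the family took 7.06% and 6.06% in Ctrl-i, against 5.21% and 5.10% in Fmr-i1, and the groups no longer overlapped. The Ctrl-i library of Exp.2, where the mt- rows took 38.4%, moved most between the 2 ways of counting. Of the separate members, Mt1 (2.87% and 2.71% against 2.13% and 2.00%) and Mt3 (1.00% and 1.02% against 0.675% and 0.728%) did not overlap between groups without the mt- symbols, and Mt2 (3.19% and 2.32% against 2.40% and 2.37%) did. On that scale 12.7% of all tested rows had both Fmr-i1 libraries below both Ctrl-i libraries.

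**Figure D2:**
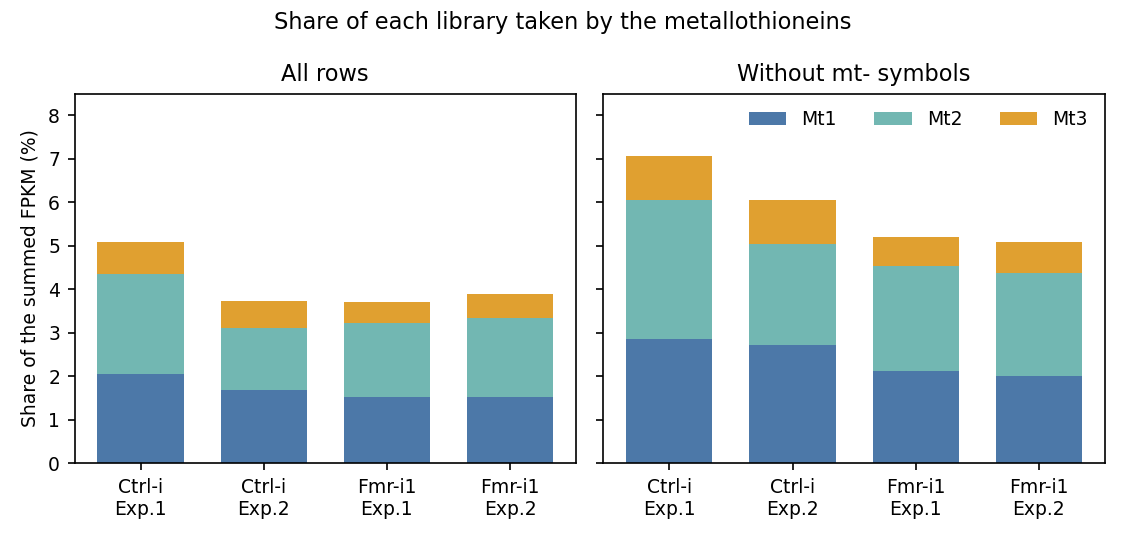
Share of the summed FPKM (vertical axis, percent) taken by the main rows of Mt1, Mt2 and Mt3, stacked, in each library, over all rows (left) and without the symbols that start with mt- (right). On the left the Ctrl-i library of Exp.2 lies close to the Fmr-i1 libraries, and on the right both Ctrl-i libraries, at 7.06% and 6.06% for the family, lie above both Fmr-i1 libraries.

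The place of the family depends on length, because FPKM divides by it. The sources used here do not say which length the FPKM were made with, and the length beside each row equals the span of the transcript on the genome, introns included, in 90.3% of annotated rows (1246 bases for Mt1, 905 for Mt2 and 1540 for Mt3). FPKM times the length used is in proportion to the fragments of a row. Multiplied by the annotated transcript length, the 6 rows took 1.68% and 1.25% in Ctrl-i, against 1.19% and 1.21% in Fmr-i1. On that scale Mt1 ranked 7, 7, 8 and 8, Mt2 ranked 6, 9, 7 and 6, and Mt3 ranked 18, 20, 31 and 29. Multiplied by the length beside each row instead, the 6 rows took 0.405% and 0.337% in Ctrl-i, against 0.280% and 0.269% in Fmr-i1, with ranks from 47 to 90 for Mt1, 69 to 113 for Mt2 and 159 to 290 for Mt3. The metallothioneins stood lower on both of these scales than by FPKM, and which of them gives the share of fragments is not known.

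In the order of mean FPKM over the 4 libraries, with the mt- symbols left out, Mt2 was in place 3 with 10296.5 FPKM and Mt1 in place 4 with 9668 FPKM. Ahead of them were Dbi, the acyl-CoA-binding protein, with 11272 FPKM and CT010467.1 with 11160.5 FPKM. The ranges of Mt1 and Mt2 over the libraries overlapped each other and those of both rows ahead, so this order is not settled by the spread. Mt3 was in place 6 with 3407 FPKM.

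Fth1, the ferritin heavy chain, lay between Mt1 and Mt3 with 6233 FPKM. Its highest library (6823 FPKM) was below the lowest of Mt1 (8231 FPKM), and its lowest (4938 FPKM) was above the highest of Mt3 (4207 FPKM), so Fth1 overlapped neither. After Mt3 came the ferritin light chain Ftl1 (3352 FPKM), Vim, which encodes the intermediate filament protein vimentin (3332 FPKM), Gm28438 (3059 FPKM) and the lipid carrier gene Apoe (2734 FPKM). All of these overlapped Mt3 in range.

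The ratio of 2 members inside a library does not depend on how that library was scaled. Mt1 was 0.899 and 1.17 times Mt2 in Ctrl-i, against 0.886 and 0.845 times Mt2 in Fmr-i1, so Mt1 was above Mt2 only in the Ctrl-i library of Exp.2. Mt1 was 2.86 and 2.66 times Mt3 in Ctrl-i, against 3.15 and 2.75 times Mt3 in Fmr-i1, and these overlapped. Mt2 was 3.18 and 2.27 times Mt3 in Ctrl-i, against 3.56 and 3.25 times Mt3 in Fmr-i1. For Mt2 over Mt3 both Fmr-i1 ratios were above both Ctrl-i ratios (3.25 against 3.18 at the nearest), and for Mt1 over Mt2 both were below (0.886 against 0.899). These gaps were narrow and no share over all rows was computed for ratios, so no group difference is read from them.

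Fmr-i1 was then compared with Ctrl-i over all rows, on log2(FPKM+1) with limma's test, blocking on the experiment, and p-values were adjusted over all rows (Benjamini-Hochberg). No row passed an adjusted p of 0.05, so the share called was 0% of 11898 rows tested. At an unadjusted p below 0.05 there were 598 rows, and the smallest adjusted p was 0.0914. The median log2 fold change of all rows was 0.16, and 63.3% of rows were higher in Fmr-i1. An exact permutation test of 2 libraries against 2 that ignores the experiments cannot go below p = 0.333, and keeping the pairing leaves fewer arrangements.

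No metallothionein passed the test. Mt1 was 10950 ± 1534 FPKM in Ctrl-i and 8386 ± 218 FPKM in Fmr-i1 (mean ± SD, n = 2 each), which is 76.6% of Ctrl-i. Its log2 fold change was -0.38 ± 0.35 (SE), with a 95% interval from -1.26 to 0.50 and an adjusted p of 0.95 in limma. Fewer cells of a type in the culture, less RNA per cell and a smaller part of that RNA in the purified fraction cannot be told apart in these libraries.

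Mt3 was 3960 ± 349 FPKM in Ctrl-i and 2854 ± 204 FPKM in Fmr-i1, 72.1% of Ctrl-i. Its log2 fold change was -0.47 ± 0.31 (SE), with an interval from -1.26 to 0.32 and an adjusted p of 0.95 in limma. With the libraries scaled to equal median FPKM, the log2 fold change of Mt3 was -0.67, with an unadjusted p of 0.0443 and an adjusted p of 0.989, so it did not pass on that scale either.

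Mt2 was 10903 ± 3514.5 FPKM in Ctrl-i and 9690 ± 75.8 FPKM in Fmr-i1, 88.9% of Ctrl-i. It was lower in Fmr-i1 in Exp.1 (0.720 times Ctrl-i) and higher in Exp.2 (1.16 times). Its log2 fold change of -0.13 ± 0.38 (SE, interval -1.08 to 0.82, adjusted p = 0.979 in limma) turned to 0.09 with quantile normalization and to 0.20 without the Ctrl-i library of Exp.1, so no direction can be given for Mt2.

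Of the 3 main rows, 2 (Mt1 and Mt3) had both Fmr-i1 libraries below both Ctrl-i libraries, against 11.2% of all tested rows. After median scaling all 3 did, which 18.6% of all tested rows did. On that scale Mt2 had 13851 and 9374 in Ctrl-i, against 9226 and 8931.5 in Fmr-i1, so its groups were separated by a narrow gap. The scaling moved the median log2 fold change of all rows from 0.16 to -0.01, and relative to those medians the log2 fold changes of Mt1 (-0.38 and -0.57), Mt2 (-0.13 and -0.33) and Mt3 (-0.47 and -0.67) kept about the same distance.

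The remaining rows are minor transcripts. Mt1-202 is annotated as a single exon that covers 697 bases of the introns of the main Mt1 transcript, and it had 1.95 and 0.91 FPKM in Ctrl-i and 3.87 and 2.63 FPKM in Fmr-i1. Mt3-203, which covers 326 intron bases of the main Mt3 transcript, had 2.36 and 4.19 FPKM in Ctrl-i and 8.85 and 8.04 FPKM in Fmr-i1. In both, the Fmr-i1 libraries lay above the Ctrl-i libraries, opposite to the main row of the same gene, which 25.7% of all tested rows did as deposited and 16.6% did after median scaling.

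Neither minor row passed the test, with log2 fold changes of 0.82 ± 0.49 (SE) for Mt1-202 and 1.18 ± 0.51 (SE) for Mt3-203 and an adjusted p of 0.945 in limma for each. Mt3-202 had 15.3 and 18.2 FPKM in Ctrl-i and 26.4 and 4.37 FPKM in Fmr-i1, so its Fmr-i1 libraries enclosed the Ctrl-i libraries. The minor rows made up between 0.0092% and 0.0453% of Mt1 and between 0.412% and 1.28% of Mt3, so that sums over the rows of a gene were close to the main row. Mt1-203 and Mt2-202 are annotated and had no row. Because these transcripts overlap the main ones, the division of reads among the rows of a gene is uncertain.

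**Figure D3:**
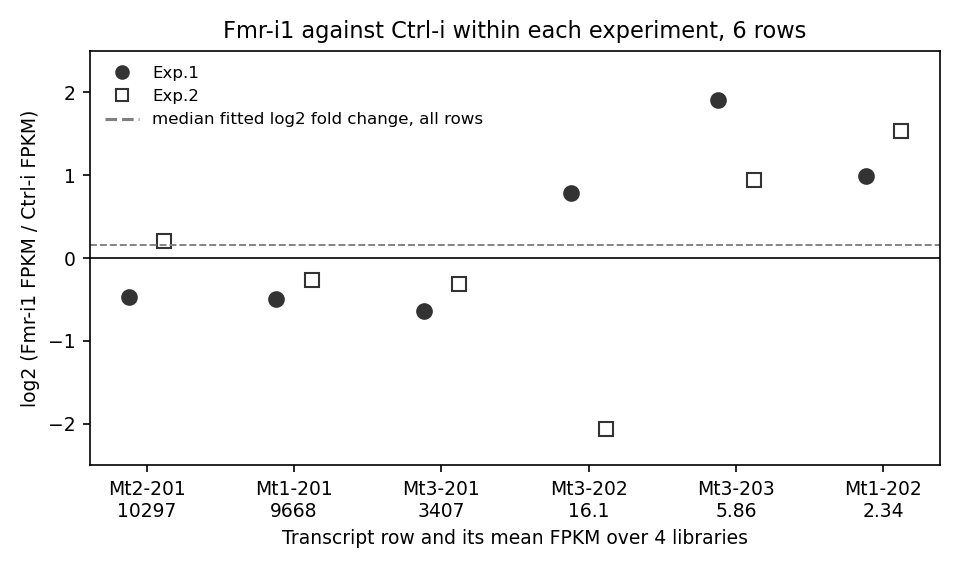
Log2 ratio of Fmr-i1 to Ctrl-i FPKM inside each experiment (vertical axis) for the 6 metallothionein rows, ordered by mean FPKM, which is printed under each name. Filled circles are Exp.1, open squares are Exp.2 and the dashed line is the median fitted log2 fold change of all rows, 0.16. The main rows of Mt1 and Mt3 lie below 0 in both experiments and the minor rows Mt1-202 and Mt3-203 lie above 0 in both.

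Markers of astrocytes, which also express metallothioneins, were summed in each library beside the family. Of 12 astrocyte markers 10 were measured (Fgfr3 and Gjb6 had no row), and their summed FPKM was 3148 and 2643 in Ctrl-i, against 2230 and 2128 in Fmr-i1. Both Fmr-i1 libraries were lower in 4 of the 10 (Gfap, Aldoc, Aqp4 and S100b) and higher in 0, against 11.2% and 25.7% of all tested rows. The groups overlapped in the other 6 (Gja1, Slc1a3, Sox9, Aldh1l1, Slc1a2 and Agt), 3 of the 10 had a log2 fold change above 0, and 0 passed the test. Gfap, the astrocyte intermediate filament gene, had 1874 and 1299 FPKM in Ctrl-i and 1138 and 1187 FPKM in Fmr-i1. Gfap was the largest part of the sum, which without it was 1274 and 1344 FPKM in Ctrl-i and 1092 and 941 FPKM in Fmr-i1. The summed metallothioneins were 9.42 and 8.33 times the summed astrocyte markers in Ctrl-i, against 9.38 and 9.86 times in Fmr-i1, and these ratios overlapped between the groups. Set against the summed ependymal markers, they were 25.3 and 14.1 times as high in Ctrl-i and 13.0 and 13.3 times as high in Fmr-i1. These did not overlap, but the gap from 13.3 to 14.1 was narrow, and no share over all rows was computed for such ratios. The value of 25.3 came from the Ctrl-i library of Exp.1, which had the lowest ependymal sum (1173 FPKM). Which cells of the culture made the RNAs of these markers was not tested, nor was the part of astrocyte RNA in the levels of the metallothioneins.

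**Figure D4:**
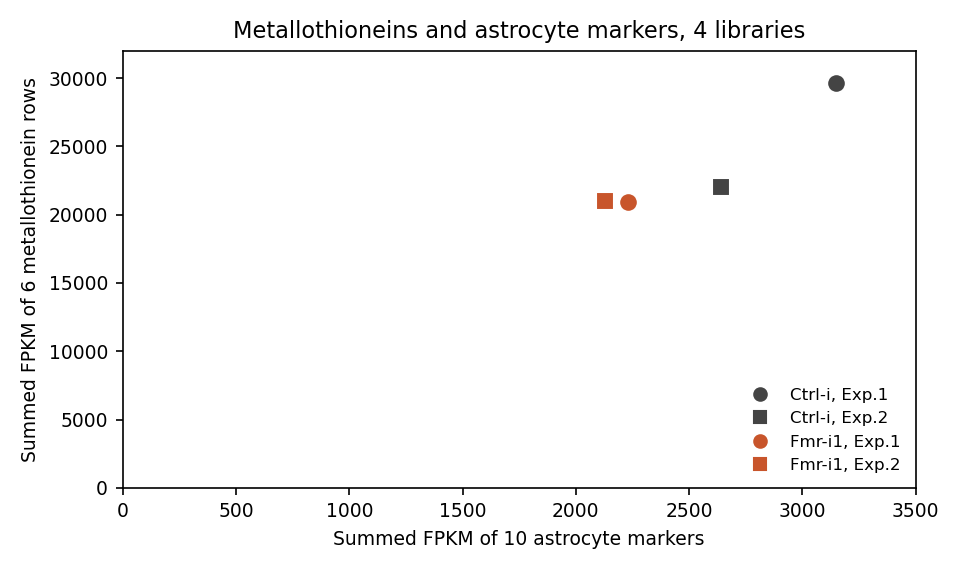
Summed FPKM of the 6 metallothionein rows (vertical axis) against the summed FPKM of the 10 measured astrocyte markers (horizontal axis), 1 point for each library. Both Fmr-i1 libraries lie to the left of both Ctrl-i libraries, and the Ctrl-i library of Exp.1 is highest on both axes with 29649 and 3148 FPKM.

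The summed FPKM of the 10 ependymal markers was 1173 and 1559 in Ctrl-i, against 1606 and 1578 in Fmr-i1, both Fmr-i1 libraries were above both Ctrl-i libraries in 2 of 10 (Dynlrb2 and Tppp3), against 25.7% of all tested rows, and 0 passed. Of the other types, 3 of 10 neuronal, 5 of 10 oligodendrocyte lineage and 1 of 10 microglial markers had a row. So did 3 of 8 endothelial and mural, 2 of 7 fibroblast and 2 of 6 choroid plexus markers, and Ttr had none. How rows entered the deposited table is not known here, so a missing row of any gene does not show that its RNA was absent. Of 5 proliferation markers 3 were measured, with a sum of 16.3 and 7.92 FPKM in Ctrl-i and 48.3 and 43.1 FPKM in Fmr-i1. Cdk1 was the largest part of the sum in Fmr-i1, with 38.2 and 24.5 FPKM, against 8.68 and 3.24 FPKM in Ctrl-i. Both Fmr-i1 libraries were higher in Cdk1 and Top2a, against 25.7% of all tested rows, Mki67 overlapped between the groups, and 0 passed the test.

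The genes whose pattern over the 4 libraries was most like that of the summed metallothioneins were sought among the 596 rows that averaged at least 100 FPKM. The measure was the root mean square difference of centred log2 FPKM, a description over 4 libraries that share experiments. Dbi was closest at 0.0354, with 14327 and 10899 FPKM in Ctrl-i and 10144.5 and 9716 FPKM in Fmr-i1. It was followed by the glutathione peroxidase gene Gpx1 (0.0443), the ATP synthase subunit gene Atp5j2 (0.0515), the ribosomal protein gene Rpl22 (0.0548) and Cystm1 (0.0596). On the same measure the members differed from their own sum by 0.0713 for Mt1, 0.115 for Mt2 and 0.137 for Mt3, and 8, 33 and 53 rows were closer to the sum. The pattern was therefore shared by other abundant rows, and the members were not closer to their sum than these.

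The genes known to handle zinc had lower FPKM than every main metallothionein row. Of the 14 zinc importers (ZIP family) 9 were measured, and 0 passed the test in either direction, with a median log2 fold change of 0.42 against 0.16 for all rows. Slc39a1, a plasma membrane zinc importer, had 59.4 and 55.9 FPKM in Ctrl-i and 64.6 and 95.5 FPKM in Fmr-i1, and Slc39a12, a zinc importer of brain, had 67.5 and 47.9 against 61.8 and 60.6 FPKM. Slc39a6, the third by level, had 12.8 and 7.64 against 17.2 and 18.4 FPKM. Of the 10 zinc exporters (ZnT family) 5 were measured and 4 tested, 0 passed, and the median was 0.37. Slc30a5 and Slc30a6, which load zinc into the secretory pathway, had means of 16.7 and 6.61 FPKM, Slc30a9 had 12.4 FPKM, and Slc30a1, the exporter of the plasma membrane and itself a target of Mtf1, had no row.

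Of 7 genes of metal-responsive and stress-responsive transcription 5 were measured, and 0 passed, with a median log2 fold change of -0.02. Mtf1 and Keap1 had no row. Nfe2l2, which encodes the oxidative stress factor Nrf2, had 75.7 and 61.4 FPKM in Ctrl-i and 85.4 and 102.2 FPKM in Fmr-i1. Both Fmr-i1 libraries were higher, as in 25.7% of all tested rows, and the adjusted p was 0.95 in limma. Kat2b, a histone acetyltransferase gene, and Sp1, a general transcription factor gene, had means of 16.0 and 7.12 FPKM.

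Copper and iron genes were measured more fully. Of 16 copper genes 14 were tested and 0 passed, with 6 above and 8 below 0 and a median of -0.24. The most abundant were Sod1, the copper and zinc superoxide dismutase (199 FPKM), Atox1, a cytosolic copper chaperone (162 FPKM), and Cox17, the copper chaperone of cytochrome oxidase (154 FPKM), and the mean FPKM of Mt1 and Mt2 were 48.5 and 51.7 times that of Sod1. Of 15 iron genes 14 were tested and 0 passed, with 7 above and 7 below and a median of 0.00. They were led by Fth1, with 6475 and 6697 FPKM in Ctrl-i and 6823 and 4938 FPKM in Fmr-i1, and Ftl1, with 4432 and 3143 against 3538 and 2294 FPKM, and both overlapped between the groups. Pcbp1, which delivers iron to ferritin, had a mean of 76.9 FPKM.

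Of 23 genes of glutathione and thiol metabolism 22 were measured and 21 tested, 0 passed, and the median was 0.08. The highest were the lipid peroxide-reducing enzyme gene Gpx4 (632.5 FPKM), the thioredoxin gene Txn1 (585 FPKM) and the peroxiredoxin gene Prdx6 (560 FPKM). Prdx6 had 638 and 719 FPKM in Ctrl-i and 552 and 331 FPKM in Fmr-i1, with both Fmr-i1 libraries lower and an adjusted p of 0.945 in limma. Both Fmr-i1 libraries were lower in 2 of the 22 measured genes and higher in 6, against 11.2% and 25.7% of all tested rows. Of 12 glucocorticoid-induced genes 9 were tested, 0 passed and the median was 0.43. Cdkn1a, a cell cycle inhibitor gene, had 38.7 and 39.2 FPKM in Ctrl-i and 61.5 and 73.3 FPKM in Fmr-i1, Sgk1, a serum- and glucocorticoid-regulated kinase gene, had 16.5 and 12.2 against 38.4 and 21.4 FPKM, and Nfkbia, the inhibitor of NF-kB, had 11.3 and 15.6 against 14.1 and 20.3 FPKM.

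The neighbours of the cluster on chromosome 8 were low. Of 7 locus genes 5 were tested and 0 passed, with a median log2 fold change of 0.17, and Mt4 and Slc12a3 had no row. Nudt21, which encodes a cleavage factor of mRNA 3' ends, had a mean of 24.2 FPKM, and Nup93, which encodes a nucleoporin and lies beyond Mt1 at 94214564 to 94317227, had 10.7 FPKM.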

How the data were processed

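Multicilia of day-10 mEPCs were sequenced as poly(A) RNA in 4 libraries, 2 per group, which were mapped to groups and experiments by their titles, and every column of values matched a sample. The paper's methods speak of 3 multiplexed replicates, and a further replicate was not analysed here. The authors deposited FPKM per transcript row. The paper names Cutadapt 1.9.1, Hist 2.0.1 (mapping to GRCm38/mm10) and Cuffdiff 2.2.1, whereas HISAT2 2.1.0 and featureCounts 1.5.3 stand in the submitters' processing notes. Which of them made the FPKM is not settled here. The deposited table also gives a length per row, a value of another kind, used only in an alternative for the shares. FPKM of short transcripts depends on the length used, and fragments shared by overlapping transcripts may be divided differently by these tools. For 25 rows the symbol had been turned into a date and was restored from the transcript identifier.

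Fmr-i1 was compared with Ctrl-i with limma 3.58.1 (R 4.3.3), which was run on log2(FPKM+1) for the 11898 rows that averaged 1 FPKM or more, with trended variances, blocking on the experiment and Benjamini-Hochberg adjustment over all of these rows. Fold changes are on that log2 scale, with its pseudocount of 1 FPKM. The block was used because the study compares the libraries within each experiment. Same-experiment libraries deviated from their group means with a correlation of -0.0822. The members and the gene lists were chosen with earlier results of these data known. Text names the 3 members, the 3 most abundant measured genes of each list, up to 4 rows on either side of the members in the order of mean FPKM, and the 5 rows most like their sum. A gene that this rule names is not reported here. Genes named beyond these, the marker genes, the ratios to marker sums and the sum without Gfap were chosen after their values were seen. Where a symbol had several rows, the one with the highest mean stood for it.

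Transcript and coding sequences came from GENCODE M21 and promoter windows from RefSeq (GRCm38.p6), and were compared with Python 3.11.15 and Biopython 1.88. The fit was repeated with other pseudocounts (0.1 and 5 FPKM), without the minimum or with one of 5 FPKM, with libraries scaled by their medians, by quantiles or without the mt- symbols, on sums per symbol, without the block or the trend, and leaving out single libraries, and the shares were repeated with other denominators.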

Additional observations from a re-analysis of the deposited data

How the results depend on the processing

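Under the 14 alternatives of the fit, Mt1 (log2 fold change between -0.57 and -0.19) and Mt3 (-0.67 to -0.33) stayed below 0, and no member passed the threshold, with adjusted p-values between 0.687 and 0.995 in limma. Mt2 turned to 0.094 with quantile normalization and to 0.20 without the Ctrl-i library of Exp.1. The cause was not tested. Leaving out 1 library, which also drops the block, gave -0.52 to -0.23 for Mt1, -0.47 to 0.20 for Mt2 and -0.56 to -0.38 for Mt3, and 0 rows called each time. A group left with 1 library was assumed to vary like the other group.

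Without the replicate block 3 rows were called (1 of Bag1 and 2 of 9530068E07Rik) in place of 0, and the adjusted p was 0.828 for Mt1, 0.942 for Mt2 and 0.805 for Mt3. The replicate numbers mark the experiments, and no call of a member changed with the pairing.

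The mean share of the family over the 4 libraries was 4.10% of the summed FPKM. It was 5.86% without the mt- symbols, 1.33% for FPKM times transcript length and 0.323% for FPKM times the length given beside each row. Summing the rows of a symbol cannot change this share, because it already counts every row of the members. With 2 libraries a group and no read counts, differences of the size seen here could not be told from the spread as limma estimates it. That estimate is not the spread of the member alone, because it draws partly on other rows of similar level.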
